A study of Mus musculus with 15 samples.

Results

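Solute carriers for amino acids, sugars and monocarboxylates were read from RNA sequencing of 15 kidneys of male C57BL/6 mice that were 8 weeks old at the start. The members are the 100 protein-coding genes, of 54532 genes listed, whose symbol falls in the families Slc1, Slc2, Slc3, Slc5, Slc6, Slc7, Slc16, Slc36 or Slc38. The control group (C, 5 mice) ate a normal diet. The CKD model group (M, 5 mice) ate chow with 0.25% adenine for 4 weeks and then a standard diet until week 8. The AA group (5 mice) received the same adenine course together with asiatic acid, a triterpene of Centella asiatica, by gavage at 30.0 mg/kg per day over the 8 weeks. The C and M groups received the vehicle, DMSO in saline, in its place. The labels name no batch, and each library is whole kidney RNA of 1 mouse.

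The proximal tubule reclaims nearly all filtered glucose, amino acids and lactate. Carriers in its apical brush border take them up with sodium or protons, and a second set in the basolateral membrane passes them on to the blood. Some carriers work only as pairs: the heavy chain rBAT (gene Slc3a1) brings the light chains of Slc7a9 and Slc7a13 to the apical membrane, and a second heavy chain (gene Slc3a2) does this for light chains such as those of Slc7a5, Slc7a6, Slc7a7 and Slc7a8. Other carriers, among them Slc1a5, Slc2a1, Slc7a5, Slc16a1 and Slc38a2, supply nutrients to most cells of the body. The members were therefore read in lists: 15 apical and 8 basolateral proximal tubule carriers, 18 widely expressed ones, 3 osmolyte carriers (Slc6a6 is in both of the latter), 5 carriers tied to stress or hypoxia, and 12 carriers best known from neurons. The remaining members belong to no list. Slc7a6os came in by its symbol alone and is not a carrier.

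Promoter sequence is shown for 3 members whose levels, or whose ratio to a related carrier, differed between groups below: Slc3a1, Slc5a8 (an apical sodium-coupled lactate carrier) and Slc16a1 (the widely expressed lactate carrier). Each line holds the 100 bases before the RefSeq start on GRCm38.p6, written 5′ to 3′ on the strand of the gene, and no annotated exon overlaps any of them. They lie at chr17:85028247-85028346, chr10:88885892-88885991 and chr3:104638564-104638663, all on the plus strand, and their GC content was 45%, 66% and 76%. Capitals mark the only match, in the Slc3a1 sequence, to a core motif of HNF4, a transcription factor of the proximal tubule.
Slc3a1: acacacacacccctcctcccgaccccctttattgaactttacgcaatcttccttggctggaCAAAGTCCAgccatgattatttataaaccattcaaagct
Slc5a8: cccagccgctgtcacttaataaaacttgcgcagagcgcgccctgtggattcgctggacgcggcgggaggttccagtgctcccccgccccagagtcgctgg
Slc16a1: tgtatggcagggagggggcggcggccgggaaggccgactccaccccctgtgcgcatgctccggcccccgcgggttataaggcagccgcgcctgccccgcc
In RefSeq windows of 250 bases before and 50 bases after a start, 73 of the 100 members had a sequence. CAAAGTCCA (HNF4) was found, on either strand, in 1 of these 73 members (1.37%) and in 0.555% of all genes with a window. TGATGNAAT (the amino acid response element) was found in 1 member, Slc6a21, against 1.08% of all genes. Another motif was searched and is not reported here. A match describes these letters and is not a site of binding.

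Values are FPKM (fragments on a gene scaled to its length and to a total set for each library), so levels can be compared between genes. That total, estimated from the steps between FPKM values, was not the number of fragments on the listed genes. It was 9.02e+06 against 1.74e+07 in AA mouse 2 and 6.64e+07 against 2.89e+07 in C mouse 3. What the total counts is not given in the sources used here. The summed FPKM ran from 263859 (C mouse 3) to 1.48e+06 (AA mouse 2). Fold changes are on the log2 scale of FPKM + 1, which understates the change of genes under about 1 FPKM. Calls needed 2 things: a limma adjusted p no higher than 0.05 and a log2 difference of 1 or more up or down. Depth differed between the groups. Fragments outside mitochondrial genes, estimated from the steps between FPKM values, numbered 6951352 to 13576620 for C and 2225755 to 4271183 for AA. For M they numbered 2077644 to 2770068 (mice 1 to 3) and 6488512 and 7142900 (mice 4 and 5), and mitochondrial genes held 64.0 to 86.8% of the fragments against 53.0 to 62.5% for C and 69.2 to 87.2% for AA. M mice 1 to 3 also stood apart in the members: 57, 66 and 56 of the 100 were listed at 0 there, against 13 and 4 in M mice 4 and 5, 6 to 15 (C) and 18 to 30 (AA). Called members, lists and families are therefore also given with M mice 4 and 5 alone where the comparison includes the M group.

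The 5 M kidneys had less RNA of proximal tubule carriers than the 5 C kidneys, while the median of the widely expressed carriers lay near 0. Of 88 members tested for M vs. C, 6 were called, all lower in M: the apical Slc6a18, Slc6a19, Slc7a9 and Slc7a13, the basolateral Slc6a13, and Slc16a13, a monocarboxylate carrier family member. Among all 21153 genes tested, 1.11% were called lower and 0.269% were called higher. The fold change was below 0 for 70 of the 88 members, with a median of -0.32 against -0.12 over all genes tested (-0.12 and 0.05 with M mice 4 and 5 alone). An unadjusted limma p under 0.05 was found for 34 members, but its share over all genes was not counted. For 16 members every M library was below every C library, and for 2 every M library was above; these outcomes applied to 3.67% and 1.05% of all genes tested. With quantile normalization 6 members were again called, 5 lower and 1 higher. None of the 6 calls was made with M mice 4 and 5 alone, where all 6 fold changes were still below 0, or without M mouse 1, M mouse 2, M mouse 3 or C mouse 5; 1 member was called without C mouse 2, 3 without C mouse 4 and 11 without M mouse 5.

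The 2 most abundant members in the C group were apical amino acid carriers. Slc6a18 (ENSMUSG00000021612, chr13:73661752-73678023, minus strand), a carrier of neutral amino acids such as glycine, had 38.1, 132, 38.8, 39.8 and 104 FPKM (C mice 1 to 5), 1.7, 1.69, 1.5, 17.2 and 12.6 (M mice 1 to 5) and 7.31, 9.01, 6.06, 2.0 and 8.6 (AA mice 1 to 5). Every M and AA library was below every C library, and M mice 4 and 5 were the 2 highest of the 10 adenine-fed mice. The fall was called for M vs. C (log2 fold change -3.52, SE 0.63, adjusted p = 0.0227) and for AA vs. C (log2 fold change -3.13, SE 0.44, adjusted p = 0.000526); with M mice 4 and 5 alone it was -1.97 for M vs. C (adjusted p = 0.193). Slc7a13 (ENSMUSG00000041052, chr4:19818725-19842218, plus strand), the rBAT partner of the straight proximal tubule that carries acidic amino acids and cystine, had 21, 84.9, 26.1, 27.6 and 50.4 FPKM (C mice 1 to 5), 1.69, 0.492, 6.91, 8.14 and 4.58 (M mice 1 to 5) and 13.4, 10.2, 5.54, 4.95 and 13.8 (AA mice 1 to 5). Again no M or AA library reached the lowest C library. It was called lower for M vs. C (log2 fold change -3.10, SE 0.53, adjusted p = 0.0207) and for AA vs. C (log2 fold change -1.93, SE 0.40, adjusted p = 0.00399), and M mice 4 and 5 alone gave -2.40 (adjusted p = 0.128). Its level in the AA group ran from 4.95 to 13.8 FPKM and overlapped with 0.492 to 8.14 in the M group (AA vs. M log2 fold change 1.17, SE 0.50, adjusted p = 0.121).

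Slc6a19 (ENSMUSG00000021565, chr13:73679745-73704865, minus strand), the main apical carrier of neutral amino acids, lies 1721 bases from Slc6a18 on the same strand. It had 1.39, 11.3, 1.96, 2.09 and 4.59 FPKM (C mice 1 to 5), 0.0344, 0, 0, 0.252 and 0.557 (M mice 1 to 5) and 0.44, 0.62, 0.586, 0.767 and 0.521 (AA mice 1 to 5). M mice 2 and 3 were listed at 0, and no adenine-fed mouse reached the lowest C value. It was called lower for M vs. C (log2 fold change -1.91, SE 0.42, adjusted p = 0.0428) and for AA vs. C (log2 fold change -1.45, SE 0.38, adjusted p = 0.0125), with -1.63 (adjusted p = 0.293) for M mice 4 and 5 against C. Cltrn, which brings the Slc6a19 carrier to the brush border in kidney, lay at 8.71 to 20.2 FPKM (C) and 10.6 to 17.1 FPKM (AA) and was not called (AA vs. C log2 fold change 0.08, SE 0.25, adjusted p = 0.813); its M values were 12.5, 0, 16.2, 4.99 and 4.32.

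Slc3a1 and Slc7a9 encode the heavy and the light chain of the apical cystine and cationic amino acid carrier, and they were found at different levels in the AA group. Slc7a9 (ENSMUSG00000030492, chr7:35448796-35466036, plus strand) had 4.08, 29.8, 6.82, 6.61 and 15.5 FPKM (C mice 1 to 5), 0, 0, 0.468, 1.3 and 4.73 (M mice 1 to 5) and 2.77, 2.07, 1.69, 0.708 and 0.348 (AA mice 1 to 5). All AA libraries were below all C libraries, while M mouse 5 was above C mouse 1. The light chain was called lower for M vs. C (log2 fold change -2.59, SE 0.57, adjusted p = 0.043) and for AA vs. C (log2 fold change -2.21, SE 0.46, adjusted p = 0.00402), and the fall was -1.59 (adjusted p = 0.392) with M mice 4 and 5 alone. Slc3a1 (ENSMUSG00000024131, chr17:85028376-85064236, plus strand) had 1.92, 7.21, 3.14, 2.93 and 3.24 FPKM (C mice 1 to 5), 0.56, 0, 1.92, 1.36 and 1.44 (M mice 1 to 5) and 3.63, 3.46, 3.99, 4.21 and 6.89 (AA mice 1 to 5). Every M library was below the lowest C library, and every AA library was above every M library and within the C range. The heavy chain was called higher for AA vs. M (log2 fold change 1.47, SE 0.34, adjusted p = 0.0112), was below 0 but not called for M vs. C (log2 fold change -1.20, SE 0.37, adjusted p = 0.136) and differed from C by 0.27 in the AA group (SE 0.28, adjusted p = 0.467). The AA vs. M value with M mice 4 and 5 alone was 1.15 (adjusted p = 0.0505). Slc3a1 overlaps Prepl on the other strand. Of its 31-base words 25.5% were found in other genes, with Prepl sharing the most. Reads of these genes cannot be told apart in the shared stretch if the counting did not use strand. Prepl had a log2 fold change of 0.21 for AA vs. M (adjusted p = 0.732) and -0.70 for AA vs. C (adjusted p = 0.0587).

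The apical sugar carriers differed from gene to gene. Slc5a2 (ENSMUSG00000030781, chr7:128265657-128272430, plus strand), the sodium-glucose carrier of the early proximal tubule and the target of the gliflozin drugs, had 1.26, 24.1, 3.53, 3.08 and 5.7 FPKM (C mice 1 to 5), 0.357, 0, 0, 0.73 and 2.69 (M mice 1 to 5) and 0, 1.45, 1.06, 0 and 0.236 (AA mice 1 to 5). C mouse 2 was far above the other C mice, and M mouse 5 and AA mouse 2 were both above C mouse 1. It was called lower for AA vs. C (log2 fold change -2.03, SE 0.54, adjusted p = 0.0128) and not for M vs. C (log2 fold change -1.93, SE 0.58, adjusted p = 0.125). Of its words 17.7% were found in other genes, with BC017158 sharing the most. BC017158 overlaps it and was also called lower for AA vs. C at -1.11 (adjusted p = 0.00295). Slc5a1, the glucose carrier of the late proximal tubule, ranged over 0.33 to 1.61 FPKM (C), 0 to 0.972 (M) and 0.0358 to 1.57 (AA), and the groups overlapped. Its fold change was -0.39 for M vs. C (SE 0.27, adjusted p = 0.504) and -0.23 for AA vs. C (SE 0.27, adjusted p = 0.507). Slc5a10, a carrier of mannose and fructose, had 1.44 to 8.45 FPKM (C), 0 to 1.34 (M) and 0 to 1.69 (AA), with no M library at or above the lowest C library. It was called lower for AA vs. C (log2 fold change -1.39, SE 0.42, adjusted p = 0.0226), though not without AA mouse 2, C mouse 2 or C mouse 5. Of its words 13.2% were found in other genes, with the overlapping Fam83g sharing the most. Slc5a11, a myo-inositol carrier, had 1.46, 7.83, 1.77, 2.49 and 4.18 FPKM (C mice 1 to 5), 0, 0, 0, 1.03 and 1.16 (M mice 1 to 5) and 2.8, 3.06, 1.04, 2.08 and 1.19 (AA mice 1 to 5). M mice 1 to 3 were listed at 0, every M library was below every C library, and the gene was called higher for AA vs. M (log2 fold change 1.12, SE 0.34, adjusted p = 0.0363) with 0.48 against M mice 4 and 5 alone (adjusted p = 0.411). That call was made in only 4 of the 10 fits that left out 1 library.

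Among the other apical carriers, Slc5a8 (ENSMUSG00000020062, chr10:88885992-88929515, plus strand) had 1.21, 3.93, 0.822, 2.47 and 1.73 FPKM (C mice 1 to 5), 0.485, 0, 0, 0.492 and 0.661 (M mice 1 to 5) and 2.7, 2.48, 1.69, 1.03 and 1.07 (AA mice 1 to 5). The M group was below both other groups without overlap, and the C and AA groups overlapped. Its rise for AA vs. M was called (log2 fold change 1.06, SE 0.29, adjusted p = 0.022), its M vs. C value was not (log2 fold change -1.13, SE 0.32, adjusted p = 0.101), and the AA vs. C difference was -0.07 (SE 0.30). Against M mice 4 and 5 alone the AA group differed by 0.78 (adjusted p = 0.171). The AA vs. M call was made in 6 of the 10 fits that left out 1 library. Slc5a12, the second sodium-coupled lactate carrier, was not called in any comparison and ranged over 0.629 to 2.68 FPKM (C), 0 to 0.891 (M) and 0.227 to 1.66 (AA). Slc1a1, the carrier of glutamate and aspartate, had 1.64, 4.29, 1.6, 2.53 and 3.53 FPKM (C mice 1 to 5), 0.0559, 0, 0.167, 1.03 and 0.971 (M mice 1 to 5) and 1.63, 2.23, 1.97, 0.764 and 2.07 (AA mice 1 to 5), with every M library below every C library. In AA vs. M it was higher by 0.96 (SE 0.31, adjusted p = 0.0454), just under the fold limit. Of its words 31.5% were found in other genes, with the overlapping 4430402I18Rik sharing the most. That gene had 0.85 for AA vs. M (adjusted p = 0.0268). Slc6a20a and Slc6a20b, carriers of proline and related imino acids, were not called. Of the words of Slc6a20a 32% were found in other genes, with Slc6a20b sharing the most. For Slc6a20b that share was 31.5%, with the overlapping Sacm1l sharing the most. Slc6a20b ranged over 1.25 to 5.94 FPKM (C), 0 to 0.759 (M) and 0.529 to 1.57 (AA), and Slc6a20a over 0.52 to 3.45 FPKM (C), 0 to 2.25 (M) and 0.234 to 1.0 (AA). Slc36a2, a proton-coupled carrier of proline and glycine, stayed at or below 1.47 FPKM in all 15 libraries and was not called.

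**Figure D1:**
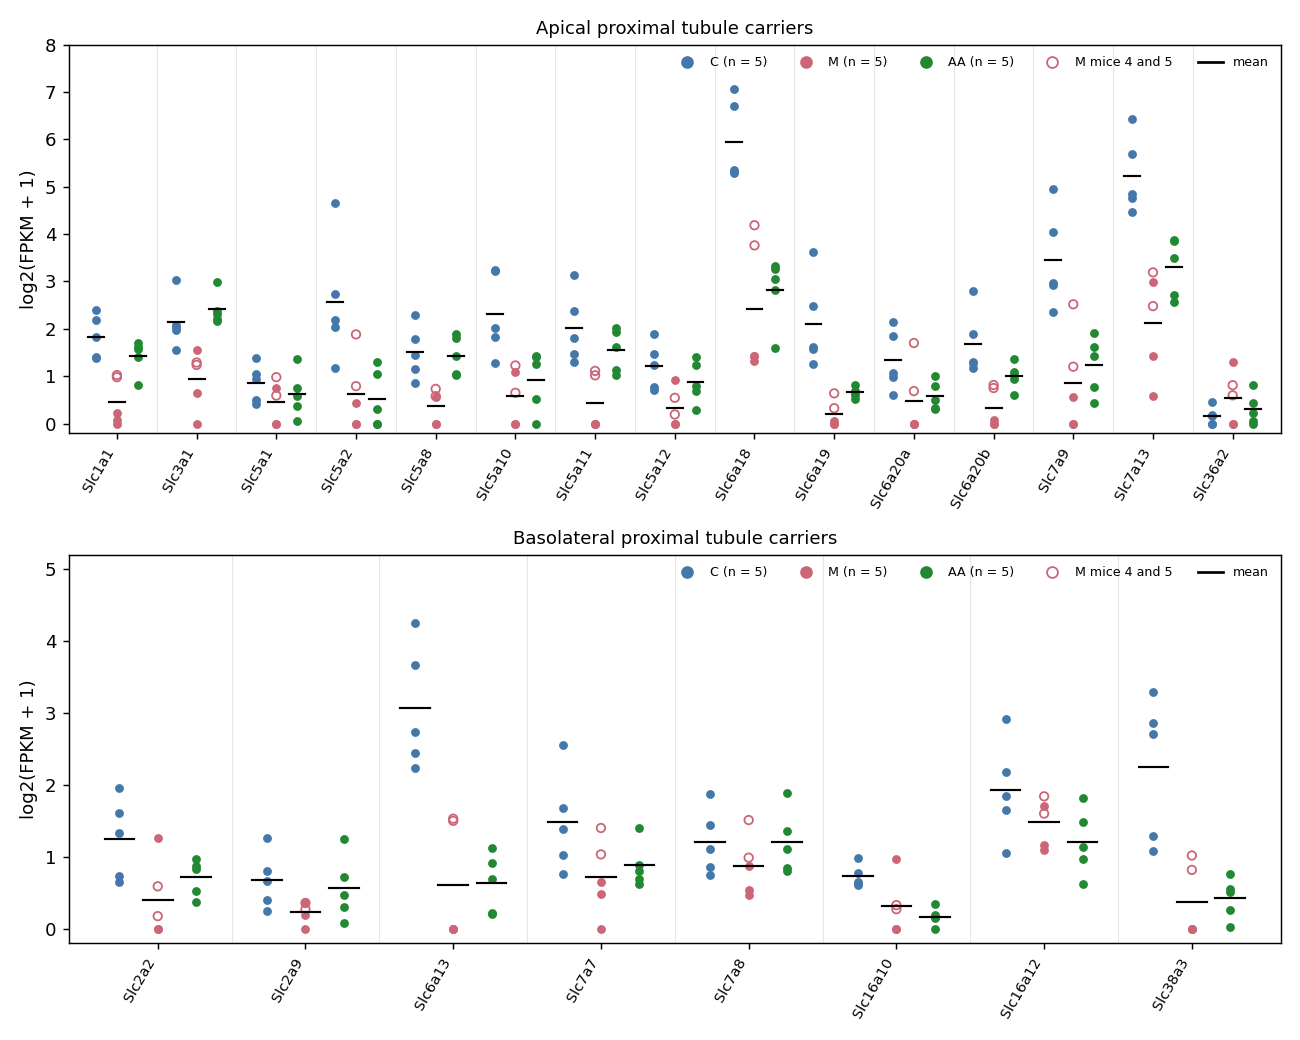
Levels of the 15 apical (upper panel) and 8 basolateral (lower panel) proximal tubule carriers in each kidney, as log2(FPKM + 1), with 5 mice each in the C, M and AA groups; bars are group means and open circles are M mice 4 and 5. Slc6a18 and Slc7a13 were the highest in the C group and lower in every M and AA library, while the AA libraries of Slc3a1 and Slc5a8 overlapped with the C libraries.

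As a list, the 15 apical carriers averaged 2.29 ± 0.65 (C), 0.75 ± 0.52 (M) and 1.31 ± 0.19 (AA) as log2(FPKM + 1) over their genes (SD, n = 5 each). The C libraries lay at 1.69 to 3.27, all above the AA libraries at 1.00 to 1.48 and the M libraries at 0.13 to 1.35, and M mice 4 and 5 (1.22 and 1.35) lay within the AA range. In M vs. C, 4 of the 15 were called lower, 14 had a fold change below 0, 9 had M libraries all below the C libraries, and the median was -1.37; 1.11% of all genes were called lower and 3.67% were below without overlap. With M mice 4 and 5 alone 14 were again below 0, with a median of -0.90. In AA vs. M, 3 (Slc3a1, Slc5a8 and Slc5a11) were called higher, as were 11.7% of all genes, and the median was 0.46, against 0.17 over all 19798 genes tested; with M mice 4 and 5 alone it was 0.18 and 7 of the 15 were below 0. In AA vs. C, 6 were called lower (Slc5a2, Slc5a10, Slc6a18, Slc6a19, Slc7a9 and Slc7a13), against 9.61% of all genes, and the median was -0.68, against 0.09 over all 21898 genes tested. The sign of these 3 medians held under TPM, quantile normalization, centring on the library median and scaling to fragments outside mitochondrial genes, and the AA vs. M median was smallest with quantile normalization (0.09, all genes -0.10).

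Some markers of several tubule segments, not only of the proximal tubule, were also lower. The summed FPKM of 10 proximal tubule markers was 321 to 1524 (C), 34.8 to 141 (M) and 117 to 209 (AA). Of these, Lrp2, Miox, Ggt1, Acsm2 and Ass1 were called lower for both M vs. C and AA vs. C, while Cubn, Keg1, Aqp1, Gatm and Dpep1 were not called, and the last 3 had AA vs. C values of -0.24, 0.41 and 0.51. The sum followed its most abundant genes, such as Miox at a mean of 357 FPKM (C) and 17.7 (M). For 3 markers of the distal convoluted tubule the sum was 17.0 to 99.0 (C), 0 to 9.79 (M) and 1.46 to 3.34 (AA), and for 4 of collecting duct principal cells 28.0 to 483, 1.76 to 12.0 and 6.12 to 10.7. Of the 3, only Slc12a3 was called lower, for both M vs. C and AA vs. C. Pvalb and Trpm6 were not called, and the mean of Pvalb was 1.91 FPKM (C), 2.33 (M) and 0.55 (AA). Of the 4, Aqp2 and Fxyd4 were called lower in both comparisons, Aqp3 was not called and Avpr2 was not tested. The sum of 4 thick limb markers overlapped between groups, with 47.5 to 106 (C), 14.1 to 96.0 (M) and 35.9 to 62.7 (AA). Of 6 macrophage markers, the sum was 16.5 to 97.6 (C), 132 to 390 (M) and 93.0 to 141 (AA), and of 5 fibroblast markers 41.4 to 101, 94.9 to 374 and 238 to 435. The macrophage sum followed Lyz2, with a mean of 13.3 FPKM (C), 194 (M) and 86.9 (AA). Lyz2 and C1qb were called higher for both M vs. C and AA vs. C, and C1qa for AA vs. C alone. Csf1r was called lower for AA vs. C (log2 fold change -1.52, adjusted p = 0.00376), and Adgre1 and Cd68 were not called against C. All 5 fibroblast markers were called higher for AA vs. C, but only Col3a1 for M vs. C. Of all these markers, the principal cell marker Avpr2 alone was at 0 throughout a group (AA). In whole kidney RNA, fewer cells of a type and less RNA per cell cannot be told apart, and the part of the marker changes in the carrier results was not tested.

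Of the 8 basolateral carriers, 1 was called lower for M vs. C and 2 for AA vs. C (1.11% and 9.61% of all genes tested), and all 8 had fold changes below 0 in both. Slc6a13 (ENSMUSG00000030108, chr6:121300227-121337733, plus strand), a carrier of GABA and taurine, had 3.73, 18, 4.44, 5.64 and 11.7 FPKM (C mice 1 to 5), 0, 0, 0, 1.89 and 1.83 (M mice 1 to 5) and 0.885, 0.153, 0.62, 0.167 and 1.18 (AA mice 1 to 5). M mice 1 to 3 were listed at 0, and the C group overlapped with neither other group. It was called lower for M vs. C (log2 fold change -2.46, SE 0.48, adjusted p = 0.0287) and AA vs. C (log2 fold change -2.43, SE 0.38, adjusted p = 0.000912), and M mice 4 and 5 alone gave -1.55 (adjusted p = 0.273). Slc38a3 (ENSMUSG00000010064, chr9:107650634-107669530, minus strand), which brings in glutamine for ammonia formation, had 1.13, 5.54, 1.45, 8.84 and 6.25 FPKM (C mice 1 to 5), 0, 0, 0, 1.03 and 0.765 (M mice 1 to 5) and 0.0139, 0.693, 0.429, 0.47 and 0.20 (AA mice 1 to 5). C mice 1 and 3 were well below the other C mice, but still above all M and AA libraries. It was called lower for AA vs. C (log2 fold change -1.83, SE 0.41, adjusted p = 0.00534) but not for M vs. C (log2 fold change -1.88, SE 0.45, adjusted p = 0.0622). Slc16a10, an aromatic amino acid carrier, was lower in every AA than in every C library, with a difference under the fold limit (log2 fold change -0.57, SE 0.12, adjusted p = 0.00449). Slc2a2, the basolateral glucose carrier, ranged over 0.57 to 2.88 FPKM (C), 0 to 1.4 (M) and 0.301 to 0.963 (AA), without a call. Slc2a9 (urate), Slc7a7 and Slc7a8 (light chains for cationic and neutral amino acids) and Slc16a12 (creatine) were not called either, and their fold changes for M vs. C ran from -0.76 for Slc7a7 to -0.33 for Slc7a8. The list's median was -0.60 for M vs. C, 0.11 for AA vs. M and -0.58 for AA vs. C, and the AA vs. M value turned to -0.04 with TPM, -0.21 with quantile normalization and -0.23 with M mice 4 and 5 alone, where 6 of the 8 were below 0. With these 2 mice the M vs. C median was -0.40.

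The 18 widely expressed carriers averaged 1.61 ± 0.15 (C), 1.59 ± 0.28 (M) and 1.30 ± 0.08 (AA) as log2(FPKM + 1) (SD, n = 5 each). None was called for M vs. C by limma, where 3 had an unadjusted p under 0.05, 9 were above and 9 below 0 and the median was -0.02. That median depended on the scaling: it was -0.81 with TPM, where that of all genes was -0.58, and 0.18 with quantile normalization, where that of all genes was 0.04. It was 0.03 when only M mice 4 and 5 were used. For AA vs. M the list's median was -0.35 (all genes 0.17), with 11 of the 18 below 0 and 7 above. Restricting the M group to these 2 mice changed it to -0.11. The AA vs. C median was -0.40 (all genes 0.09), with 10 below 0 and 8 above. Under TPM it was -1.33, against -1.56 for the apical list, -1.36 for the basolateral list and -0.39 for all genes. All 5 AA libraries (highest 1.40) were below all 5 C libraries (lowest 1.47), and 2 members were called lower for AA vs. C, a share close to the 9.61% of all genes. Slc1a5 (ENSMUSG00000001918, chr7:16781340-16798274, plus strand), the glutamine carrier of dividing cells, had 10.5, 24.2, 10.8, 10.9 and 18.1 FPKM (C mice 1 to 5), 1.82, 10.1, 5.17, 11.6 and 28.9 (M mice 1 to 5) and 2.31, 4.22, 3.07, 4.42 and 3.47 (AA mice 1 to 5). The AA group was below every C library (log2 fold change -1.77, SE 0.27, adjusted p = 0.00083), and the M group ran from below the AA group to above the C group. Slc36a1, a proton-coupled carrier of the lysosome, had 1.31, 8.05, 1.6, 1.16 and 1.97 FPKM (C mice 1 to 5) and 0.276 to 0.96 FPKM (AA), without overlap (log2 fold change -1.09, SE 0.36, adjusted p = 0.0311). Its call was lost without AA mouse 2, 3 or 4 or C mouse 2 or 5, and without C mouse 2 the fold change was -0.72. Slc3a2, the second heavy chain, had 5.48 to 9.25 FPKM (C), 6.47 to 12.5 (M) and 3.19 to 6.72 (AA) and was lower in AA than C by less than the fold limit (log2 fold change -0.81, SE 0.23, adjusted p = 0.0172).

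Slc7a5 (ENSMUSG00000040010, chr8:121881150-121907694, minus strand), the light chain that brings leucine and other large amino acids into growing cells, was 1 of the 2 members with every M library above every C library. It had 0.378, 0.537, 0.645, 0.39 and 0.371 FPKM (C mice 1 to 5), 1.79, 15.5, 11.2, 0.671 and 0.899 (M mice 1 to 5) and 0, 0.957, 1.1, 0.419 and 0.888 (AA mice 1 to 5). M mice 2 and 3 stood far above the other 13 libraries, and the difference was not called for M vs. C (log2 fold change 1.61, SE 0.59, adjusted p = 0.204). Slc16a1 (ENSMUSG00000032902, chr3:104638668-104658462, plus strand) had 0.253, 0.242, 1.13, 0.955 and 0.0945 FPKM (C mice 1 to 5), 1.91, 4.82, 8.02, 0.601 and 0.145 (M mice 1 to 5) and 1.13, 1.35, 0.226, 0.351 and 1.07 (AA mice 1 to 5). M mice 1 to 3 were the 3 highest, and M mice 4 and 5 were within the C range (log2 fold change 1.06, SE 0.51, adjusted p = 0.325). With M mice 4 and 5 alone the M vs. C values were 0.29 for Slc7a5 and -0.13 for Slc16a1. Slc38a2, a carrier of small neutral amino acids that responds to amino acid shortage, had 4.09 to 6.66 FPKM (C), 5.29 to 10.7 (M) and 3.36 to 5.54 (AA) and was not called.

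**Figure D2:**
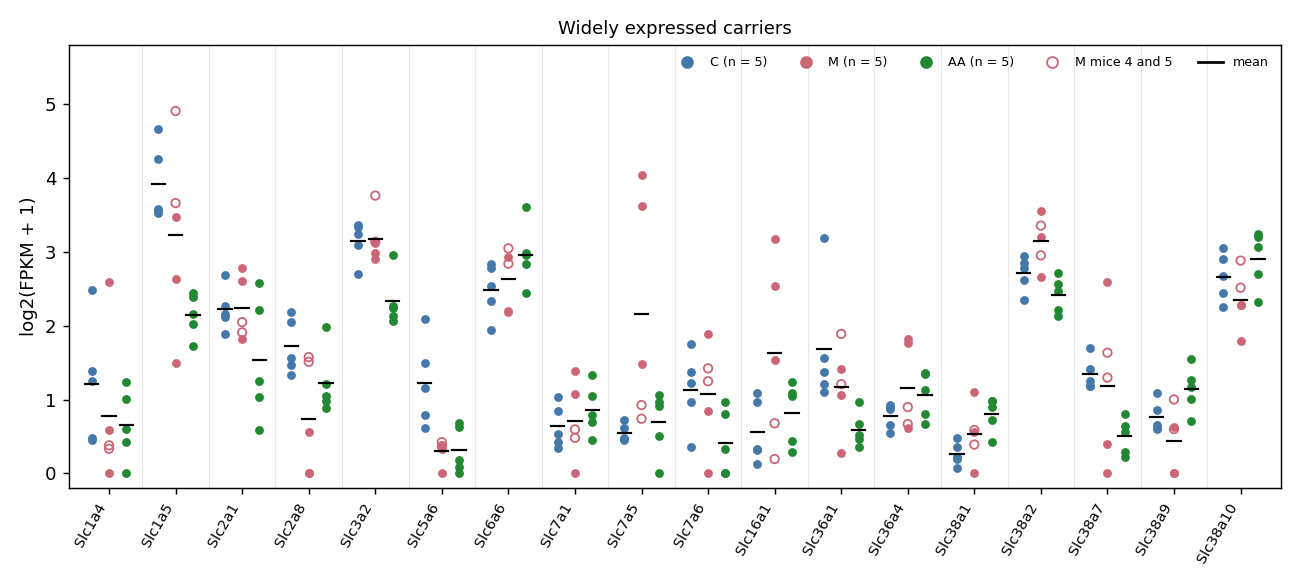
Levels of the 18 widely expressed carriers in each kidney, as log2(FPKM + 1), drawn in the same way for the C, M and AA groups (5 mice each, bars for means, open circles for M mice 4 and 5). Most genes overlapped between groups, Slc1a5 was lower in the AA group than in the C group, and M mice 2 and 3 were high for Slc7a5.

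Outside the apical list, 4 members were called higher for AA vs. M, so that the 7 calls of 79 members tested were all in that direction; among all genes tested 11.7% were called higher and 1.07% lower, so the members' share was near that of all genes. With quantile normalization 4 members were called, 2 higher and 2 lower, with library quality weights 1 higher and 2 lower, and without M mouse 1 4 higher and 2 lower. Slc2a13, a proton-coupled myo-inositol carrier, had 0.101 to 0.45 FPKM (C), 0 to 0.314 (M) and 0.653 to 3.11 (AA), with no AA library as low as any C or M library (log2 fold change 1.14, SE 0.28, adjusted p = 0.0133; 0.94 against M mice 4 and 5 alone). Slc7a12, an amino acid carrier known from mouse kidney, had 0, 0.429, 0.268, 0.204 and 0.481 FPKM (C mice 1 to 5), 0, 0, 0.761, 0.881 and 0.957 (M mice 1 to 5) and 3.29, 3.12, 2.95, 1.37 and 0.927 (AA mice 1 to 5). It was called higher for AA vs. M (log2 fold change 1.12, SE 0.34, adjusted p = 0.0367) and for AA vs. C (log2 fold change 1.32, SE 0.26, adjusted p = 0.00289), and it was 0.72 (adjusted p = 0.257) against M mice 4 and 5 alone. For 6 members every AA library was above every M library and for 0 every AA library was below, against 11.9% and 1.31% of all genes tested.

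None of these 7 members was called against M mice 4 and 5 alone, where 2 others were called lower in AA; they are named here after their values were seen. Slc1a5 had -2.13 (adjusted p = 0.0106) and Slc38a6 -1.32 (adjusted p = 0.0175). Of the words of Slc38a6 40.7% were found in other genes, with Noct sharing the most. Leaving out single libraries changed the count of 7 to 1 without AA mouse 1, 2 without AA mouse 2, and 3 without M mouse 2 or without M mouse 3. The members' median for AA vs. M was 0.16, and 0.17 over all genes; with M mice 4 and 5 alone these were -0.02 and 0.12.

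AA vs. C, which uses no M library, had 18 calls among 88 members tested, 16 lower and 2 higher in AA. Among all genes tested, 9.61% were called lower and 10.2% higher. The members' median was -0.24 against 0.09 over all genes. Every AA library was below every C library for 18 members and above for 4, against 12.5% and 11.5% of all genes tested. The count stayed between 13 and 20 when any single library was left out. Apart from the listed apical, basolateral and widely expressed carriers, 6 members were called lower. Slc16a11 (ENSMUSG00000040938, chr11:70212752-70216417, plus strand) and Slc16a13 (ENSMUSG00000044367, chr11:70216789-70221064, minus strand), monocarboxylate carriers, end 371 bases apart on opposite strands. Slc16a11 had 1.51, 11.2, 2.12, 3.98 and 8.78 FPKM (C mice 1 to 5), 0, 0, 1.12, 2.55 and 2.71 (M mice 1 to 5) and 1.5, 0.217, 0.313, 0.837 and 0.584 (AA mice 1 to 5), and every AA library was below every C library (log2 fold change -1.73, SE 0.42, adjusted p = 0.00826). Slc16a13 had 1.62, 8.87, 1.22, 4.91 and 4.65 FPKM (C mice 1 to 5), 0, 0, 0, 0.367 and 0.567 (M mice 1 to 5) and 0.339, 0, 0, 0.112 and 1.48 (AA mice 1 to 5). All M libraries were below the C libraries, AA mouse 5 reached the C range, and the fall was called for M vs. C (log2 fold change -1.96, SE 0.40, adjusted p = 0.0345) and AA vs. C (log2 fold change -1.80, SE 0.41, adjusted p = 0.0060), with -1.63 (adjusted p = 0.264) for M mice 4 and 5 against C. Slc2a4, the insulin-dependent glucose carrier, was called lower for AA vs. C (log2 fold change -1.34, SE 0.34, adjusted p = 0.0104). So were Slc5a9, a mannose carrier, at -1.10 (adjusted p = 0.0149), Slc6a15, a carrier of branched-chain amino acids, at -1.05 (adjusted p = 0.041), and Slc16a5 at -1.25 (adjusted p = 0.0118). Slc6a15 had 1.63, 7.39, 1.59, 0.598 and 1.11 FPKM in C mice 1 to 5 and 0.208 to 0.499 in AA mice. Its call was lost in 8 of the 10 fits that left out 1 library, all but those without C mouse 4 or C mouse 5, and without C mouse 2 the fold change was -0.66. Slc5a9 and Slc16a5 lost their calls only without C mouse 2 (-0.82 and -0.98).

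The other member called higher for AA vs. C besides Slc7a12 was Slc7a2 (ENSMUSG00000031596, chr8:40862396-40922308, plus strand), a carrier of arginine and other cationic amino acids. It had 0.0954, 0.106, 0.178, 0.298 and 0.0851 FPKM (C mice 1 to 5), 1.72, 0.377, 0.822, 2.15 and 1.9 (M mice 1 to 5) and 3.3, 2.39, 1.81, 1.02 and 2.38 (AA mice 1 to 5). No M or AA library overlapped with the C group, and it was higher by 1.42 for AA vs. C (SE 0.21, adjusted p = 0.000761). Its M vs. C value was 0.99, just under the fold limit and with an adjusted p of 0.0801, and 1.40 with M mice 4 and 5 alone (adjusted p = 0.0699). Of its words 8.78% were found in other genes. Gm26584 shared the most and was listed at 0 in 14 of the libraries.

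**Figure D3:**
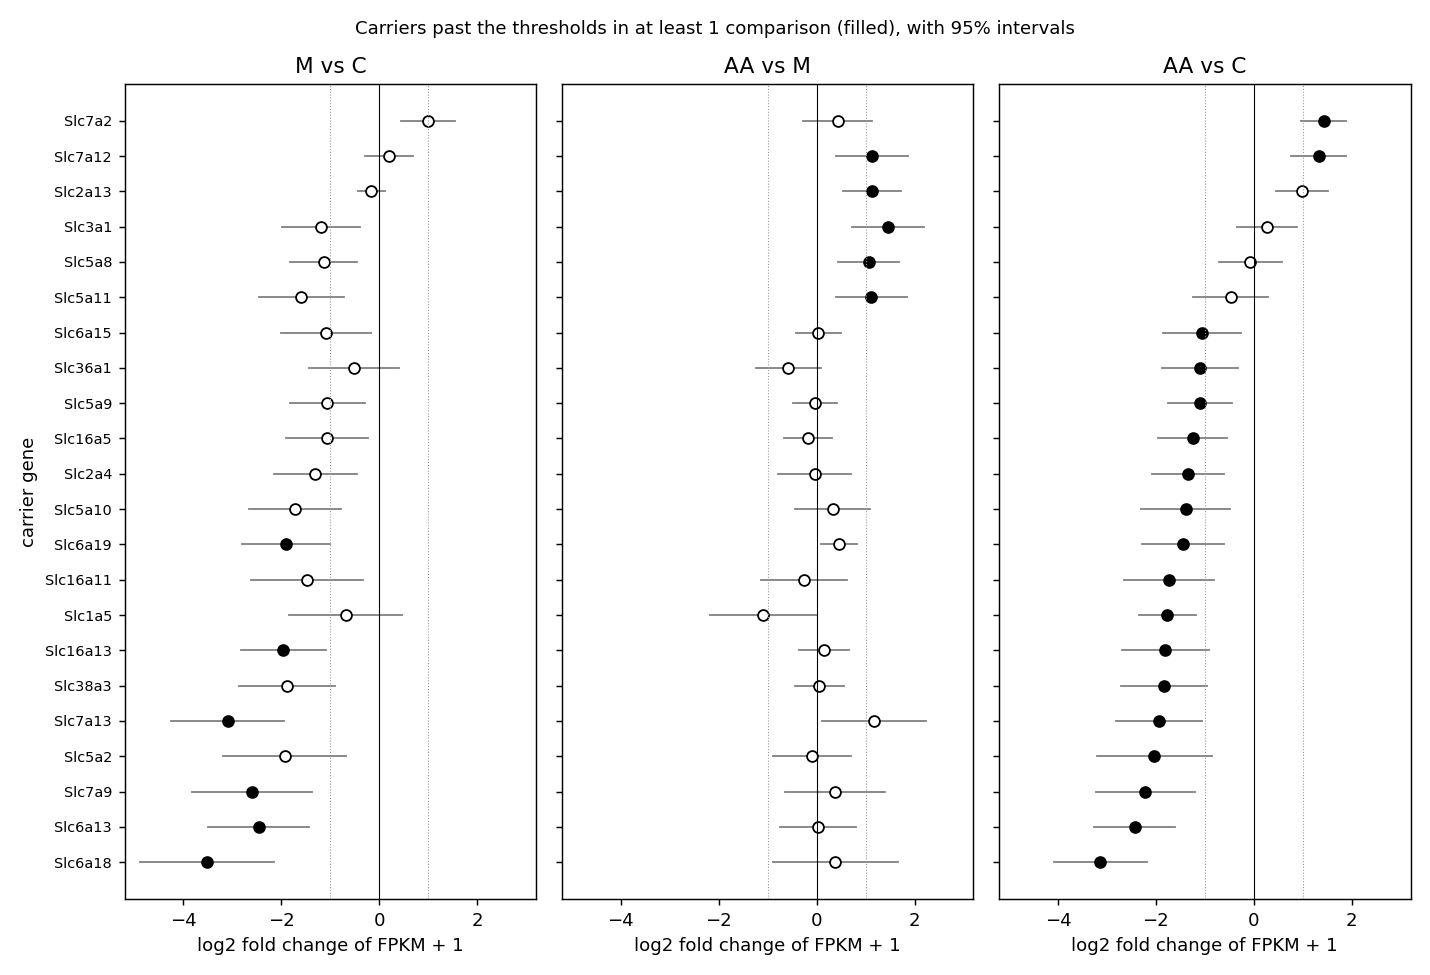
Log2 fold changes of FPKM + 1 with 95% intervals for 22 of the 24 members called in at least 1 comparison, for M vs. C (left), AA vs. M (middle) and AA vs. C (right), with filled points for calls and dotted lines at the fold limit of 1. The 6 calls for M vs. C all lie below 0, the 5 drawn for AA vs. M all lie above 0, and for AA vs. C 16 of the 18 lie below 0.

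Osmolyte carriers were not called. Slc6a12, the betaine carrier of the medulla, was above every M and AA library in all C mice, with 2.14, 0.171, 2.37, 0.465 and 0.666 FPKM in C mice 1 to 5 and at most 0.156 in the M group, and it was listed at 0 in all 5 AA libraries. Its neighbour Slc6a13, called above, ends 5342 bases before it on the same strand. Slc5a3 (myo-inositol) ranged over 1.27 to 7.58 FPKM (C), 1.06 to 2.75 (M) and 1.01 to 2.33 (AA), and Slc6a6 (taurine) over 2.84 to 6.1 FPKM (C), 3.55 to 7.25 (M) and 4.42 to 11.1 (AA). The stress list (Slc1a3, Slc2a3, Slc2a6, Slc7a11 and Slc16a3) held no call in any comparison, and no library reached 1 FPKM for any of its 5 genes. Slc7a11, the cystine carrier of the oxidative stress response, had 0.127, 0.00536, 0.0346, 0.0997 and 0.058 FPKM (C mice 1 to 5) and 0.186, 0.364, 0.571, 0.0588 and 0.226 FPKM (M mice 1 to 5) (log2 fold change 0.25, SE 0.11, adjusted p = 0.264). Of the 12 neuronal carriers 8 were tested for M vs. C and AA vs. C and 6 for AA vs. M. In all, 11 members were listed at 0 in at least 10 libraries, and Slc38a5 in all 15.

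Scaffolds, subunits and transcription factors that serve the carriers were read beside them. The medians over 12 such partner genes were -1.36 for M vs. C, 0.41 for AA vs. M and -0.60 for AA vs. C, and with M mice 4 and 5 alone -0.97 for M vs. C and 0.32 for AA vs. M. Pdzk1ip1, a membrane protein that activates the Slc5a2 carrier, had 49.9, 93.8, 41.6, 61.3 and 69.1 FPKM (C mice 1 to 5), 8.14, 2.26, 2.61, 17.4 and 21 (M mice 1 to 5) and 1.16, 6.3, 3.07, 5.79 and 5.8 (AA mice 1 to 5). The C group was above both other groups without overlap (log2 fold change -3.64, SE 0.36, adjusted p = 0.000111 for AA vs. C). Hnf4a had 9.18, 31, 8.51, 24.6 and 25 FPKM (C mice 1 to 5), 3.8, 0.912, 1.05, 9.37 and 7.6 (M mice 1 to 5) and 11.9, 11.7, 18.5, 12.2 and 18.8 (AA mice 1 to 5). M mice 1 to 3 were the lowest libraries, and every AA library was above every M library. Hnf4a was called higher for AA vs. M (log2 fold change 1.79, SE 0.47, adjusted p = 0.0195), as were 11.7% of all genes tested. It was not called against C in either the M group (-2.05, adjusted p = 0.0845) or the AA group (-0.26, adjusted p = 0.588). Bsg, the chaperone of Slc16a1, ranged over 34.7 to 48.3 FPKM (C), 25.9 to 48.3 (M) and 19.5 to 26.3 (AA) and was lower in AA than in C by less than the fold limit (log2 fold change -0.79, SE 0.20, adjusted p = 0.0097).

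Ratios within a library set a tubule carrier against a related carrier, so that a common scaling of that library cancels apart from the pseudocount. Over 10 pairs and 3 comparisons (30 tests, two-sided exact permutation tests with Benjamini-Hochberg adjustment, smallest possible p = 0.00794), 6 ratios were lower for M vs. C, 3 were higher for AA vs. M, and 3 were higher and 3 lower for AA vs. C. The comparisons share libraries and are not independent. With a pseudocount of 0.1, 5 were lower for M vs. C and 2 higher for AA vs. M. For AA vs. C 1 was then higher and 3 were lower. Where a carrier was listed at 0, as Slc38a3 in M mice 1 to 3, its ratio follows the partner gene alone. The heavy chain ratio Slc3a1/Slc3a2 was -1.15, -0.29, -1.04, -1.38 and -1.15 on the log2 scale (C mice 1 to 5), -2.26, -3.11, -1.44, -1.89 and -2.47 (M mice 1 to 5) and 0.08, -0.11, 0.25, -0.57 and 0.74 (AA mice 1 to 5). The M group was lowest without overlap and 4 of 5 AA libraries were above all C libraries, with differences of -1.23 (adjusted exact permutation p = 0.0298) for M vs. C, 2.31 (adjusted exact permutation p = 0.0298) for AA vs. M and 1.08 (adjusted exact permutation p = 0.0366) for AA vs. C. The light chain ratio Slc7a9/Slc7a5 ranged over 1.88 to 4.32 (C), -4.04 to 1.59 (M) and -0.49 to 1.92 (AA). It was lower than in C by -4.20 (adjusted exact permutation p = 0.0298) in the M group and -2.36 (adjusted exact permutation p = 0.0366) in the AA group.

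The glucose ratio Slc5a2/Slc5a1 ranged over 0.69 to 3.27 (C), -0.30 to 1.29 (M) and -1.06 to 0.55 (AA). Both genes were listed at 0 in M mice 2 and 3, where the ratio is 0 from the pseudocount alone, so that its pass for M vs. C, 1 of the 6 counted, is not read as a difference. In the AA group it was lower than in C by -1.79 (adjusted exact permutation p = 0.0298), with Slc5a2 at 0 in AA mice 1 and 4. The neutral amino acid and taurine pair Slc6a19/Slc6a6 was lower than in C without overlap in both groups, by -2.06 (adjusted exact permutation p = 0.0298) and -1.93 (adjusted exact permutation p = 0.0298). The lactate pair Slc5a8/Slc16a1 was lower for M vs. C by -2.19 (adjusted exact permutation p = 0.0476) and higher for AA vs. M by 1.87 (adjusted exact permutation p = 0.0366). Slc1a1/Slc1a5 was higher in the AA group than in the M group by 2.04 (adjusted exact permutation p = 0.0366) and than in the C group by 1.35 (adjusted exact permutation p = 0.0298), and Slc36a2/Slc36a1 was higher for AA vs. C by 1.24 (adjusted exact permutation p = 0.0366). A higher ratio for AA vs. C does not show a tubule carrier above C. In that comparison Slc1a1 alone had a log2 fold change of -0.42 and Slc1a5 had -1.77. Slc3a1 had 0.27 and Slc3a2 -0.81, and Slc36a1 was called lower. Slc38a3/Slc38a2 was lower for M vs. C by -2.32 (adjusted exact permutation p = 0.0298). The ratios Slc2a2/Slc2a1 and Slc7a7/Slc7a6 did not pass in any comparison. With M mice 4 and 5 alone, 5 against 2 libraries cannot give a p under 0.0952, so that no ratio could pass.

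**Figure D4:**
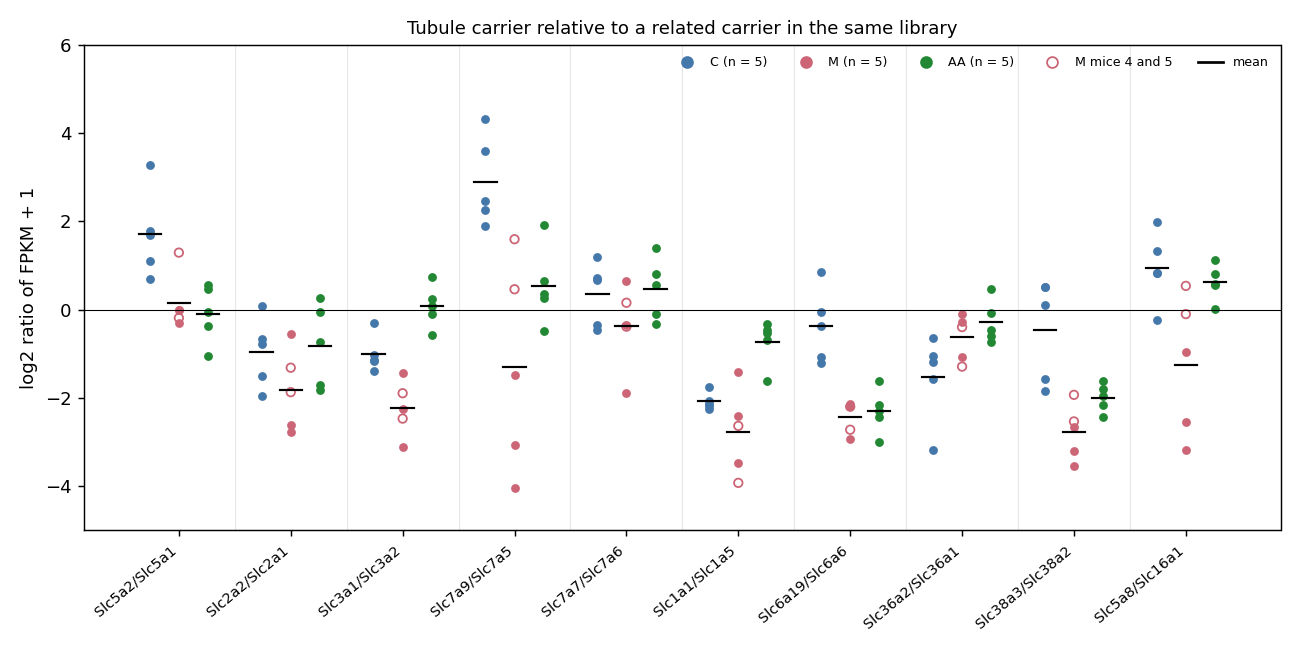
Log2 ratio of FPKM + 1 of 10 tubule carriers to a related carrier in the same kidney, with 5 mice each in the C, M and AA groups, bars for group means and open circles for M mice 4 and 5. Slc3a1/Slc3a2 was lowest in the M group and highest in the AA group, and Slc6a19/Slc6a6 was below the C group in every M and AA library.

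By family, the sodium-coupled Slc5 carriers (of sugars, lactate, inositol and other solutes) had the largest shift for M vs. C. This is among the families with at least 10 members tested. All 12 tested were below 0, with a median of -0.91 against -0.12 over all genes tested. For 5 of them every M library was below every C library, as for 3.67% of all genes tested. All 12 were also below 0 with M mice 4 and 5 alone (median -0.75, all genes 0.05). The Slc6 family had a median of -0.59 over 15 tested members, Slc16 -0.45 over 14, Slc2 -0.15 over 12 and Slc7 -0.15 over 14. The Slc2 and Slc7 medians were near the -0.12 of all genes. With M mice 4 and 5 alone these 4 were -0.24, -0.30, -0.14 and 0.04. In AA vs. C the medians were -0.40 for Slc5, -0.68 for Slc6, -0.28 for Slc16, -0.19 for Slc2 and 0.00 for Slc7, against 0.09 over all genes tested. Of the 14 Slc7 members tested, 2 were called higher and 2 lower, against 10.2% and 9.61% of all genes tested. With quantile normalization the Slc7 median turned to 0.06 for M vs. C and to -0.03 for AA vs. C, and the medians of the other 4 families kept their sign in both comparisons.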

How the data were processed

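Whole kidney poly-A RNA of 15 mice was read in paired ends of 150 bases. Per the study's methods and the submitters' processing notes, reads were cleaned with fastp, aligned to mm10 with HISAT2 2.0.5 and counted on genes with featureCounts 1.5.0-p3; strand use in the counting is not given in the sources used here. The authors deposited 1 FPKM value per gene and library, and their own DESeq2 test used counts that were not analysed here. Symbols and positions came from GENCODE M21 (GRCm38) by Ensembl identifier; 37 genes were missing there.

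limma 3.58.1 in R 4.3.3 (eBayes with intensity trend, two-sided) was run on log2(FPKM + 1) over genes above 0 in at least 5 of the 10 libraries of each comparison, with Benjamini-Hochberg adjustment over all genes tested. Of the 100 members, 88 passed this filter for M vs. C, 79 for AA vs. M and 88 for AA vs. C. Labels do not say more of the mice than their group and number. Mouse numbers did not pair the libraries: correlations of same-numbered deviations ran from -0.23 to 0.17 over 7207 genes. Recovered fragments fell within 0.02 of whole numbers for 97.6 to 98.9% of low values, and no interval was made from them. Overlap between genes was the share of 31-base words of a member's transcripts found in any other gene. The gene named beside it shared the most words, counted over its transcripts, and its own share is not given. Ratios were tested with exact permutation tests in Python 3.11.15 (scipy 1.17.1). Fits were tested on simulated data. Promoter windows came from RefSeq (GRCm38.p6).

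Genes named are every apical, basolateral, osmolyte and stress member, members of the 10 pairs, every called member, and partner genes (Cltrn, Pdzk1ip1, Bsg and Hnf4a), without values for members at 0 in 10 or more libraries. Some called members and partner genes are not reported here. The members and lists were chosen with earlier results of these data known. Alternatives were a pseudocount of 0.1, other filters and scalings, all 15 libraries in 1 fit, a replicate block, no trend, quality weights, M mice 4 and 5 only and each library left out. limma voom on recovered fragments was added after seeing the data.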

Additional observations from a re-analysis of the deposited data

Results flagged for a closer look

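Dixon's ratio (the gap of the highest or lowest library to its nearest neighbour over the whole range of its group, critical value 0.71 for 5 libraries) was past its limit in 5 of 102 groups of 5 libraries tested over the named members and ratios, and chance flags about 1 in 20 such groups. For members Dixon's ratio was taken on log2(FPKM + 1), although FPKM is printed beside it. In the AA group, Slc3a1 was 6.89 FPKM in mouse 5 against 3.46 to 4.21 in the others (ratio 0.727), and Slc6a18 was 2.00 FPKM in mouse 4 against 6.06 to 9.01 (ratio 0.711). Slc36a1 was 8.05 FPKM in C mouse 2 against 1.16 to 1.97 in the other C mice (ratio 0.778). The log2 ratio Slc5a2/Slc5a1 was 1.29 in M mouse 5 against -0.30 to 0 in the other M mice, of which mice 2 and 3 had both genes at 0 (ratio 0.811), and Slc1a1/Slc1a5 was -1.62 in AA mouse 4 against -0.69 to -0.33 in the other AA mice (ratio 0.717).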

How the results depend on the processing

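The count of members called for M vs. C (6) and for AA vs. M (7) depended on the processing, and that for AA vs. C (18) less so. For M vs. C it was 0 with genes above 0 in any library, 10 with a mean FPKM of at least 1, 25 with TPM, 12 with all 15 libraries in 1 fit, 2 with library quality weights, 11 with voom (added after seeing the data) and 0 with M mice 4 and 5 only. The count over all genes moved too, from 291 to 33, 448, 1609, 710, 188, 374 and 0 with these settings in turn. For AA vs. M the count of members was 4 with genes above 0 in any library, 0 with TPM, 4 with quantile normalization, 3 with a replicate block on the mouse numbers, 3 with quality weights (1 higher and 2 lower, 1 of them shared with the 7), 14 with voom and 2 with M mice 4 and 5 only. Over all genes the AA vs. M count went from 2533 to 1867, 422, 2279, 2217, 2453, 4007 and 1656 in turn. For AA vs. C the count of members was 34 with a pseudocount of 0.1, 42 with TPM and 32 with voom. Over all genes the AA vs. C count went from 4346 to 7474, 6785 and 7729 in turn. TPM moved the median of all genes for M vs. C from -0.12 to -0.58, and voom to -0.71. The replicate block gave 5 members for M vs. C and 18 for AA vs. C, and since the numbers do not pair the mice it is given here only. No value changed sign from a call to the opposite side under any alternative run. Leaving out each library gave 0 to 11 members for M vs. C, 1 to 10 for AA vs. M and 13 to 20 for AA vs. C.

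For the ratios, leaving out each library gave 3 to 6 for M vs. C (6 with all libraries; 3 without C mouse 2, M mouse 2 or M mouse 3), 1 to 4 for AA vs. M (3; 1 without AA mouse 1, 2, 3 or 5) and 1 to 7 for AA vs. C (6; 3 without AA mouse 1, 2 without AA mouse 2 or 3, 1 without AA mouse 5), where 5 against 4 libraries cannot give a p under 0.0159. No ratio passed for M vs. C (0), AA vs. M (0) or AA vs. C (0) with sign flips within the replicate block, whose smallest p is 0.0625, nor with M mice 4 and 5 only (0 and 0), whose smallest p is 0.0952, so these say nothing of stability. M mice 1 to 3, with 2077644 to 2770068 fragments outside mitochondrial genes, listed 10068 to 12222 genes above 0, while AA mouse 2, with 2225755 fragments, listed 18972; the part of depth in their values of 0 was not tested, and a 0 does not show that a carrier was absent.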
